A study of Homo sapiens with 4 samples.

Results

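Expression of 10 genes known for genomic imprinting was followed in cells sorted by surface ICAM1: H19, IGF2, KCNQ1OT1, PEG10, PEG3, MEST, DLK1, MEG3, PLAGL1 and GNAS. These 10 were chosen by name out of 58735 gene identifiers, with earlier results of the same contrast in view, so their differences are given here as a description, without a test. RNA-seq was made from a culture recorded as wild-type A549, which is a line from a human lung adenocarcinoma, stained with an antibody against ICAM1 and separated by fluorescence-activated sorting. The 4 libraries comprised 2 of the ICAM1-high and 2 of the ICAM1-low subset, grown in the same medium and given no other treatment in the labels. ICAM1 is an adhesion glycoprotein bound by leukocyte integrins, and its transcript checks the sort: 115 and 110.2 CPM (counts per 1000000 counts, scaled by TMM) in the ICAM1-high libraries against 4.6 and 4.88 CPM in the ICAM1-low libraries.

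An imprinted gene is transcribed mainly from the chromosome inherited from one parent, because a nearby control region carries DNA methylation from egg or sperm. At the H19 and IGF2 locus the insulator protein CTCF binds the unmethylated maternal control region and keeps shared enhancers on H19, while on the paternal chromosome the enhancers reach IGF2. The next domain on the same chromosome arm is governed by KCNQ1OT1, a long antisense RNA of the paternal chromosome that silences CDKN1C, KCNQ1 and their neighbours there. Many imprinted genes act in fetal growth and fall after birth, and tumours can re-express them. These libraries hold no allele information, so a level here is the sum of both parental copies.

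The sequences below each show a RefSeq start of H19, MEG3 and CPA4. H19 and CPA4 were taken as the genes with the highest ICAM1-high to ICAM1-low ratio on their chromosome arms' imprinted lists. MEG3 was taken as another maternally expressed RNA, present in both subsets. It has 3 RefSeq starts, of which the first is printed. The MEG3 entry that was counted begins upstream of that window, at 100779410. Each is a RefSeq promoter window of 300 bases on GRCh38.p14, 250 bases before and 50 after the annotated start, read 5′ to 3′ on the gene's strand, with CpG dinucleotides in capitals. CPA4 was added after its value was seen.
H19, chr11:2001217-2001516, minus strand: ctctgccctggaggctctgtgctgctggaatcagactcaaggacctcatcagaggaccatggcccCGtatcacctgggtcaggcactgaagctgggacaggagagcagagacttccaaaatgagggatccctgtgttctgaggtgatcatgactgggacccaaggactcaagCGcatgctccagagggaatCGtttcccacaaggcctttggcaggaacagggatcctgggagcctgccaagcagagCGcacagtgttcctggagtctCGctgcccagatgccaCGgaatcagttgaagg
MEG3, chr14:100825858-100826157, plus strand: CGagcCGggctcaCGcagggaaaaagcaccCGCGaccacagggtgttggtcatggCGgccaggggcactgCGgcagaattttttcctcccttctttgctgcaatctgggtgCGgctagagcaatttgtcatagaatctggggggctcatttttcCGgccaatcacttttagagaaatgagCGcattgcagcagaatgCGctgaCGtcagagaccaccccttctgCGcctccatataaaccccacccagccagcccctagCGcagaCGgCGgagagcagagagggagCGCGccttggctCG
CPA4, chr7:130292911-130293210, plus strand: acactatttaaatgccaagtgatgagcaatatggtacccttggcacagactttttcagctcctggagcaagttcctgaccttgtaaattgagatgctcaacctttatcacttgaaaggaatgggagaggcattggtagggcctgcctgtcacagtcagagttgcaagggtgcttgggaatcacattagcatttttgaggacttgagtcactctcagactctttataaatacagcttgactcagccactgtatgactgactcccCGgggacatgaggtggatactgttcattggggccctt
The H19 window held 6 CpG (observed over expected 0.24), the CPA4 window 1 (0.06) and the MEG3 window 19 (0.73), against a median of 14 over 35116 windows in the table. Windows with at most 6 CpG made up 36.8% of them. H19 is also the host of a microRNA, whose 2 mature forms are given with the seed (bases 2 to 8) in capitals although MIR675 itself had 0 counts in every library.
hsa-miR-675-5p: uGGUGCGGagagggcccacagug
hsa-miR-675-3p: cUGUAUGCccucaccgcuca

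Total counts were 16272591 to 17638647 per library, so that 3 counts, the floor used here, correspond to 0.161 to 0.195 CPM. Nothing in the labels ties the libraries to separate cultures, and the errors below measure the spread between libraries, which may be technical. Libraries of a subset differed by more than sampling noise (chi-square per degree of freedom 3.07 for ICAM1-high and 1.86 for ICAM1-low), and were counted as separate samples. A check of the cell line label touches the results below. A549 carries a homozygous deletion of CDKN2A, CDKN2B and MTAP, and these genes had 2223, 356 and 922 counts in the ICAM1-high libraries against 0, 0 and 9 in the ICAM1-low libraries. The counts of the ICAM1-high libraries thus go against their cell line label, the 2 libraries alike, and no comparison can be made without them. Of 11 genes typical of A549, ALDH1A1, AKR1B10, KRT8, KRT18, NQO1, FGA and FGB were each above 300 CPM in all 4 libraries. EPCAM was between 2.09 and 4.66 CPM and the lung markers SFTPB, NKX2-1 and NAPSA were at or under 1.63 CPM throughout. The subsets differed in these genes. Of 9 tested, 5 were called lower in ICAM1-high (55.6%) and 2 higher (22.2%), beside 29.4% and 30.4% of all genes tested. By subset means, ALDH1A1 was at 5407 against 11306 CPM, AKR1B10 at 1595 against 2755 and NQO1 at 847 against 1424. KRT8 was at 3068 against 1288 CPM.

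**Figure D1:**
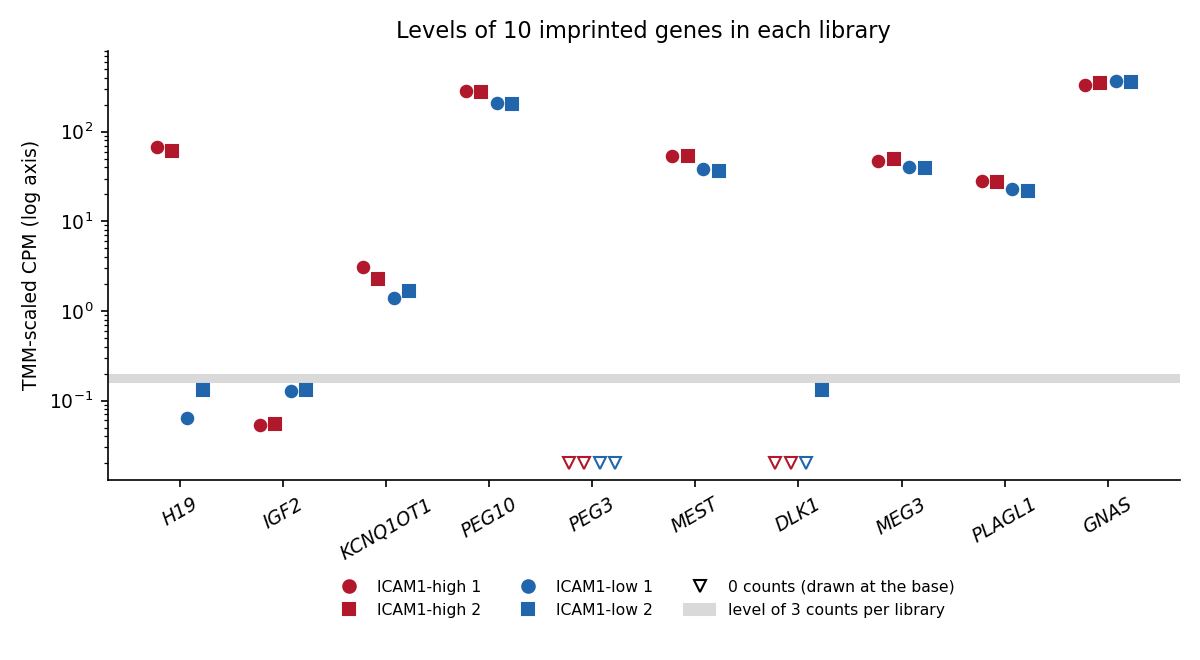
TMM-scaled CPM (log axis) of the 10 imprinted genes in each of the 4 libraries; red marks are ICAM1-high and blue marks ICAM1-low, circles replicate 1 and squares replicate 2, open triangles stand for 0 counts, and the grey band is the level of 3 counts per library (0.161 to 0.195 CPM). H19 is the gene whose subsets lie far apart (66.9 and 60.8 against 0.0639 and 0.130 CPM), while GNAS, PEG10, MEG3, MEST and PLAGL1 lie within 1.5-fold.

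H19, a maternally expressed long noncoding RNA (ENSG00000130600, chromosome 11, 1995176 to 2001470, GRCh38, minus strand), was at 66.9 and 60.8 CPM in the ICAM1-high libraries and at 0.0639 and 0.130 CPM in the ICAM1-low libraries. The subset means were 63.9 ± 4.33 and 0.0970 ± 0.0469 CPM (SD, n = 2 each), and the raw counts were 1250 and 1119 against 1 and 2. H19 was thus readily counted in each ICAM1-high library and under the floor in each ICAM1-low library. The ratio of the subsets was 661, with a 95% exact binomial interval of 226 to 3206 that covers counting error only. In a bulk library, fewer cells that make H19 and less H19 per cell cannot be told apart. H19 passed the expression filter through the ICAM1-high libraries alone, as 4.83% of genes tested did, so its difference was fixed by its being measurable.

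H19 was 1 of 81 genes that summed to 3 counts or fewer in ICAM1-low but to 100 or more in ICAM1-high. The opposite was seen for 0 genes. It ranked 4 among the 81 by ICAM1-high counts, next to CDKN2A at rank 5. The 81 genes were spread over 23 chromosomes, with 8 on chromosome 11, that of H19. The share of all tested genes on chromosome 11 was not taken, so nothing is read from the 8. Some genes of other cell types also moved with the subsets. The summed level of 12 fibroblast markers was 35.5 and 39.8 CPM in ICAM1-high against 6.13 and 7.49 CPM in ICAM1-low, mostly COL1A1. Of these markers 7 were tested and 5 were called higher (71.4%), beside 30.4% of all genes tested. Those called were COL1A1, LUM (99 against 8 counts), FAP (42 against 1), TWIST1 (113 against 29) and PDGFRB (26 against 5). PDGFRA (21 against 18) and THY1 (34 against 19) were not called. POSTN was at 0, COL1A2 and COL3A1 had at most 1 count in any library, DCN at most 2 and PRRX1 at most 3. The sum of 10 endothelial markers was 23.6 and 27.0 against 5.05 and 3.97 CPM, mostly ENG. All 4 tested were called higher (100%, beside the same 30.4%): ENG, PECAM1 (133 against 26 counts), CDH5 (64 against 1) and ERG (89 against 0). Of these, CDH5 and ERG, like LUM, FAP and PDGFRB, passed the filter through ICAM1-high alone. VWF, KDR, TEK, TIE1, EMCN and ROBO4 were not tested and had at most 5 counts in any library. For 13 trophoblast markers, a cell type in which H19 is known to be abundant, the sum was 2.04 and 2.28 against 1.02 and 2.60 CPM, and GCM1, CSH1, PAGE4, XAGE2 and VGLL1 were at 0 in all 4 libraries. The sum of 8 fetal liver markers was 6.59 and 5.92 against 4.92 and 4.10 CPM, with AFP at 1 count in all 4 libraries together. For 9 leukocyte and blood markers it was 19 and 19 against 9.58 and 9.64 CPM, nearly all CD14, with PTPRC, CD3E and HBA1 at 0. The part of fibroblast and endothelial genes in the H19 result was not tested.

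IGF2, the fetal growth factor that shares enhancers with H19 (ENSG00000167244, chromosome 11, 2129112 to 2149603), had 1 and 1 counts in ICAM1-high and 2 and 2 in ICAM1-low. All 4 values lie under the floor, so no fold is given. These counts say little of IGF2 itself, because of how the deposited reads were counted. In the GENCODE annotation 75.0% of the exon bases of this IGF2 entry are shared with exons of other genes, among them a readthrough with the insulin gene, the antisense gene IGF2-AS and an additional IGF2 entry (ENSG00000284779), and these had 0 counts in every library. The same pattern held across the table for genes of at least 200 exon bases. Of 570 genes whose exon bases are all shared with a gene on the same strand, 87.5% had 0 counts and the highest had 27 over the 4 libraries. Of 495 genes shared only with genes on the opposite strand, 99.8% had 0 counts and the highest had 4. Among genes that share no exon base, 50.5% had 0 counts and the highest had 1481169. Reads on bases shared by genes thus hardly entered the table, on either strand, so IGF2 was readable over at most 25% of its exon bases. All 10 listed microRNA genes of imprinted domains, among them MIR675 in H19 and MIR335 in MEST, whose bases are all shared with the host, had 0 counts in the 4 libraries.

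KCNQ1OT1 (ENSG00000269821, chromosome 11, 2608328 to 2699994) was at 3.11 and 2.28 CPM in ICAM1-high and at 1.41 and 1.69 CPM in ICAM1-low, from 58, 42, 22 and 26 counts. The libraries did not overlap, but the ICAM1-high libraries lay farther from each other than the lower of them from ICAM1-low. The log2 fold change, always ICAM1-high minus ICAM1-low, was 0.80 with a standard error (SE) of 0.31. KCNQ1OT1 is annotated as a single exon of 91.7 kb that lies within KCNQ1 on the opposite strand. No strand setting is stated. Of the genes above that are shared only with genes on the opposite strand, 99.8% had 0 counts, the pattern of counting without strand. Unspliced KCNQ1 RNA thus cannot be told apart from KCNQ1OT1, and KCNQ1 had 140 against 3 counts. The part of KCNQ1 RNA in the KCNQ1OT1 difference was not tested.

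Of the genes that KCNQ1OT1 is known to silence in cis, CDKN1C and KCNQ1 were near 0 in the ICAM1-low libraries. PHLDA2 and SLC22A18, listed for the same chromosome arm, were not: they were at 22.0 and 20.8 CPM and at 49.4 and 52.6 CPM there. CDKN1C, which encodes the cyclin-dependent kinase inhibitor p57 and is maternally expressed, was at 15.1 and 16.6 CPM in ICAM1-high against 0.128 and 0.0651 CPM in ICAM1-low. Its 587 against 3 counts gave a ratio of 164 (95% exact binomial interval 55.7 to 796, counting error only). KCNQ1, a potassium channel gene, had 140 against 3 counts, a ratio of 39.0 (13.1 to 192). Like H19, CDKN1C and KCNQ1 passed the filter through ICAM1-high alone and belong to the 81 genes above, at ranks 15 and 61, so no p is given for them. Of the 14 genes listed for this chromosome arm beside H19, IGF2 and KCNQ1OT1, 9 were tested, of which 4 were called higher (44.4%, 2 of the 4 being CDKN1C and KCNQ1) and 1 lower (11.1%), with a median log2 fold change of 0.14. Over all 16250 genes tested, 30.4% were called higher and 29.4% lower, with a median of 0.01, where a call is an edgeR adjusted p under 0.05. OSBPL5, an oxysterol-binding protein gene, rose by 1.40 (SE 0.12) and SLC22A18, a transporter gene, fell by 0.54 (SE 0.08). PHLDA2, named after its value was seen, was at 21.1 and 27.0 CPM in ICAM1-high and was not called (0.16, SE 0.10).

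Genes lying wholly within 500 kb of H19 had log2 fold changes between -2.32 and 1.43 where they were tested. Of these 54 genes, 28 had 0 counts in all libraries and 9 were tested. Of the 9, 1 was called higher and 3 lower (11.1% and 33.3%), beside 30.4% and 29.4% of all genes tested. KCNQ1 starts 443 kb from the H19 start but ends outside this window, and counting genes by their start gives 2 higher and 3 lower of 10 tested. MRPL23, a mitochondrial ribosomal protein gene that starts 54.2 kb from the H19 start, fell by 1.41 (SE 0.10, edgeR adjusted p = 2.26e-19). DUSP8, a MAP kinase phosphatase gene 429.6 kb away, fell by 1.97 (SE 0.14). KRTAP5-1, a hair keratin-associated gene with close relatives among which reads may be split, had 6 against 26 counts (-2.32, SE 0.67), and PRADX, a noncoding RNA gene, 52 against 16 (1.43, SE 0.46). PRADX passed the filter through ICAM1-high alone, so its call rests on that selection. The PRADX call was lost with DESeq2 and without ICAM1-high replicate 2 or ICAM1-low replicate 1 (adjusted p between 0.00173 and 0.0883 over the alternatives), and the KRTAP5-1 call without ICAM1-high replicate 2 (edgeR adjusted p = 0.00207, between 0.00208 and 0.118). TSSC4 (-0.16, SE 0.08) was not called.

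**Figure D2:**
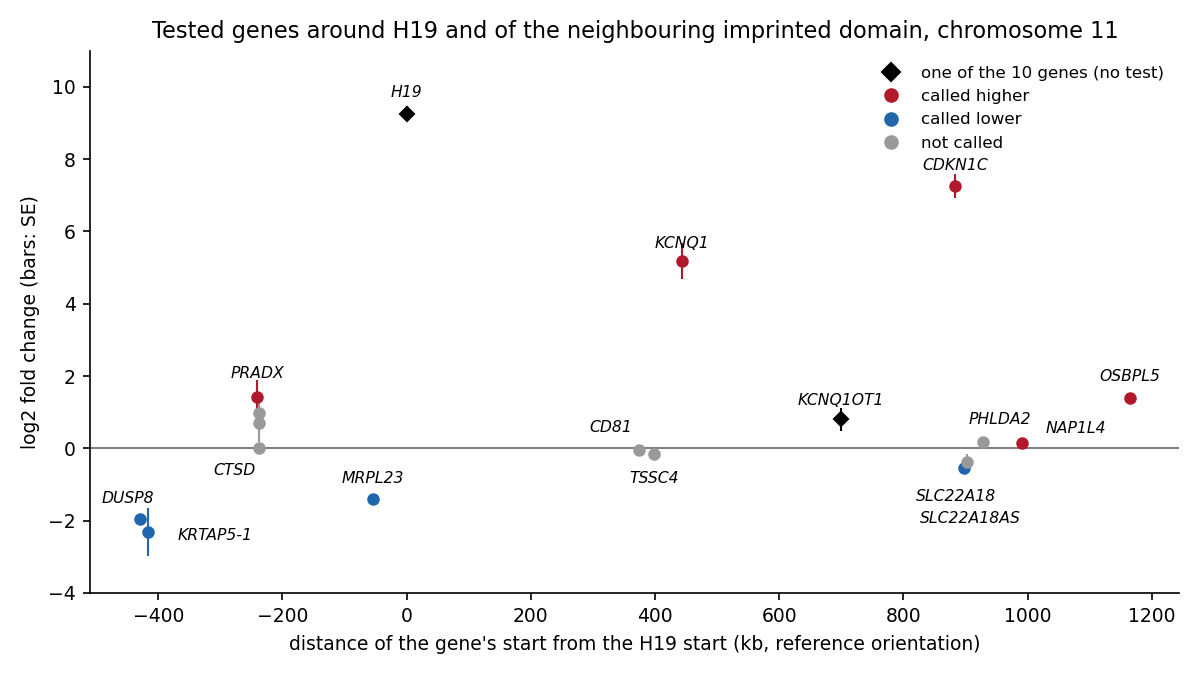
Log2 fold change (vertical axis, bars SE) of tested genes against the distance of their start from the H19 start in kb (horizontal axis); black diamonds are H19 and KCNQ1OT1, red and blue dots are genes called higher and lower in ICAM1-high, and grey dots were not called. H19, KCNQ1 and CDKN1C, each with 3 counts in ICAM1-low, lie between 5.19 and 9.26, while MRPL23, CD81 and TSSC4 between or beside them lie between -1.41 and -0.06; fitted values of genes this low in a subset depend on the prior count.

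PEG10, a paternally expressed gene derived from a retrotransposon and needed for the placenta (ENSG00000242265, chromosome 7, 94656325 to 94669695), was at 284 and 274 CPM in ICAM1-high and at 207 and 202 CPM in ICAM1-low. The subsets did not overlap, at a log2 fold change of 0.45 (SE 0.04), a 1.36-fold difference. The tested genes of its 7q21 cluster were called lower, except ASB4. SGCE, which encodes a sarcoglycan and starts head to head with PEG10 on the opposite strand, with 219 exon bases in common, was at 43.7 and 43.6 against 71.0 and 73.4 CPM (-0.73, SE 0.07, edgeR adjusted p = 2.74e-15). TFPI2, an inhibitor of matrix-degrading serine proteases, was at 212 and 199.8 against 421 and 410.0 CPM (-1.01, SE 0.04). PON2, a lactonase gene, fell by 0.47 (SE 0.04) and PPP1R9A, which encodes an actin-binding scaffold, by 0.50 (SE 0.07). Of 8 listed genes 6 were tested, and 5 fell and 0 rose (83.3% against 29.4% of all genes), at a median of -0.48. The exception, ASB4, named after its value was seen, was at 5.68 and 5.65 against 4.09 and 4.36 CPM and was not called.

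MEST, a paternally expressed gene of the hydrolase family known from mesoderm and placenta (ENSG00000106484, chromosome 7, 130486171 to 130506465), was at 52.9 and 52.9 CPM in ICAM1-high and at 38.0 and 36.4 CPM in ICAM1-low. The log2 fold change was 0.51 (SE 0.07), with no overlap, and 72.6% of its exon bases are unshared. In the same 7q32 cluster CPA4, a secreted carboxypeptidase gene, was at 154 and 173 CPM against 1.53 and 2.34 CPM, a log2 fold change of 6.4 (SE 0.11, edgeR adjusted p = 2.40e-50). CPA4 had 60 counts over the ICAM1-low libraries, well above the floor, so its difference was measurable in each subset. COPG2, a coat protein gene that overlaps the 3′ end of MEST, was at -0.13 (SE 0.09) and was not called. KLF14, listed for the same cluster, had 0 counts.

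DLK1 and MEG3 lie side by side on chromosome 14 and are expressed from opposite parental copies. DLK1, a Notch-related membrane protein of progenitor cells (ENSG00000185559, 100725705 to 100738224), had 0 counts in 3 libraries and 2 in ICAM1-low replicate 2, all under the floor. MEG3, the maternally expressed noncoding RNA of the pair (ENSG00000214548, 100779410 to 100861031), was at 47.3 and 49.0 CPM in ICAM1-high and at 40.0 and 39.5 CPM in ICAM1-low. Its subsets did not overlap and its log2 fold change was 0.28 (SE 0.07). Of the 5 other genes listed for the domain only DIO3OS was tested (-0.39, SE 0.27, not called). RTL1 had 0 counts in all libraries, and MEG8, MEG9 and DIO3 had at most 14 in any.

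PLAGL1, a paternally expressed zinc-finger factor that is known to act on H19, IGF2 and other imprinted genes (ENSG00000118495, chromosome 6, 143940300 to 144064599), was at 28.3 and 27.2 CPM in ICAM1-high and at 22.9 and 21.8 CPM in ICAM1-low (log2 fold change 0.31, SE 0.09). The libraries did not overlap. On the same chromosome IGF2R, which clears IGF2 from the cell surface, was at 284 and 288 against 294 and 295 CPM and was not called (-0.04, SE 0.04). SLC22A3, an organic cation transporter, fell by 0.67 (SE 0.06), and its relative SLC22A2 had 33 counts against 6 (2.16, SE 0.65). SLC22A2 passed the filter through ICAM1-high alone. Its call was lost with DESeq2 and without ICAM1-high replicate 2 or ICAM1-low replicate 1 (adjusted p between 0.00124 and 0.203 over the alternatives).

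GNAS, which encodes the stimulatory G protein subunit that activates adenylyl cyclase and is imprinted in a tissue-dependent manner (ENSG00000087460, chromosome 20, 58839718 to 58911192), was at 336 and 349.6 CPM in ICAM1-high and at 369 and 362 CPM in ICAM1-low. The log2 fold change was -0.09 (SE 0.04), and 0.08 (SE 0.04) with scaling by library size alone, so its direction depends on the scaling. GNAS has 6 RefSeq starts, and a count per gene does not tell its transcripts apart. Of the other chromosome 20 imprinted genes, 4 were tested. Of the 4, 2 rose (50%) and 0 fell, beside 30.4% and 29.4% of all genes tested. The chromatin reader gene L3MBTL1 rose by 2.25 (SE 0.23) and BLCAP by 0.56 (SE 0.07). NNAT (0.66, SE 0.31) and HM13 (-0.06, SE 0.05) were not called.

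PEG3, a paternally expressed zinc-finger gene (ENSG00000198300, chromosome 19, 56810077 to 56840728), had 0 counts in all 4 libraries, which allows up to 0.161 to 0.195 CPM per library for counting error only. Of its exon bases 87.1% are unshared, so the rule on shared bases leaves most of the gene readable. Its overlapping partner ZIM2 and the neighbours MIMT1 and ZIM3 were also at 0, and USP29 had 1 count. Further along the chromosome arm ZNF331 and ZNF264, zinc-finger genes, fell by 0.66 (SE 0.13) and 0.56 (SE 0.12), and NLRP2 was not called (0.13, SE 0.07).

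Across the 10 genes, 7 passed the expression filter and IGF2, DLK1 and PEG3 did not. Of the 7, 6 were past the call rule (5 to 7 over the alternatives) and all 6 were higher in ICAM1-high, against 59.7% of all genes past it in either direction and 30.4% higher. The libraries of the subsets did not overlap for any of the 7, which held for 78.4% of genes tested (40.0% higher and 38.3% lower in ICAM1-high). Nothing is read from these counts, because the 10 were picked with this contrast known. Without H19 the range of log2 fold changes was -0.09 to 0.80. Per kilobase of annotated exon, the order of levels in the ICAM1-high libraries was PEG10 (42.4 and 40.9 CPM per kb), GNAS (25.2 and 26.2), H19 (23.1 and 21), MEST (11 and 11), PLAGL1 (3.24 and 3.12), MEG3 (2.04 and 2.11) and KCNQ1OT1 (0.0339 and 0.0249). In the ICAM1-low libraries PEG10 (30.9 and 30.2), GNAS (27.7 and 27.2), MEST (7.93 and 7.59), PLAGL1 (2.62 and 2.50) and MEG3 (1.72 and 1.70 CPM per kb) kept that order, and H19 (0.0220 and 0.0449) came next to KCNQ1OT1 (0.0153 and 0.0185). No neighbours in either order overlapped between libraries, although H19 in ICAM1-low rests on 3 counts, and the annotated exon lengths of MEG3 and KCNQ1OT1 (23.2 and 91.7 kb) lower their values per kb.

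**Figure D3:**
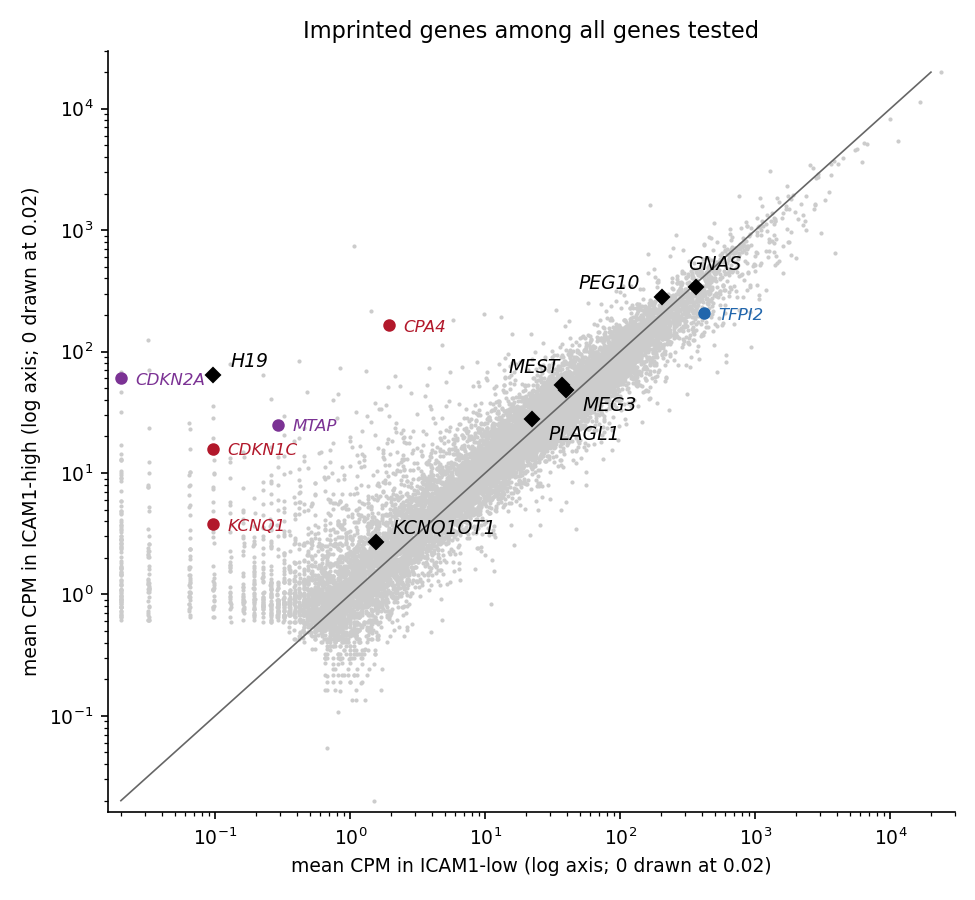
Mean CPM in ICAM1-high (vertical) against ICAM1-low (horizontal), both log axes, for the 16250 genes tested (grey); black diamonds are the 7 imprinted genes that passed the filter, red and blue dots CPA4, CDKN1C, KCNQ1 and TFPI2, purple dots CDKN2A and MTAP, and the line marks equal levels. H19 (63.9 against 0.0970 CPM) lies with CDKN1C, KCNQ1, MTAP and CDKN2A on the left, away from the other 6 diamonds near the line.

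Of 74 other genes listed for imprinted domains, 73 were matched to an identifier, 14 had 0 counts and 46 were tested. Among the 46, 12 rose (26.1%) and 13 fell (28.3%), close to the 30.4% and 29.4% of all genes, at a median of -0.07. With CDKN1C, KCNQ1 and SLC22A2 left out, whose ICAM1-high counts alone took them past the filter, 9 of 43 rose (20.9%) and 13 fell (30.2%), at a median of -0.13. With scaling by library size alone, which raises the median of all genes by 0.17, the counts were 20 and 9, and higher genes made up 68.3% of all calls in place of 50.8%. The list holds genes placed in or near such domains, not all of them imprinted in every tissue. In the 15q11 domain SNHG14, the noncoding host of small nucleolar RNAs that runs antisense to UBE3A, was at 75.3 and 76.1 against 35.0 and 36.4 CPM (1.09, SE 0.07, edgeR adjusted p = 1.39e-22). MKRN3, a ubiquitin ligase gene of the same domain, was at 0.56 (SE 0.24), a call (edgeR adjusted p = 0.0367) lost with DESeq2, with no filter, and without ICAM1-high replicate 2 or either ICAM1-low library (between 0.00587 and 0.218 over the alternatives). ATP10A (0.19, SE 0.13) and SNRPN (0.30, SE 0.20) were not called, and MAGEL2, NDN, NPAP1 and PWRN1 had 0 counts. Among imprinted genes that stand alone, NAP1L5 rose by 1.36 (SE 0.24) and FAM50B by 0.94 (SE 0.19). GRB10, an adaptor that restrains insulin and IGF receptor signalling, was at -0.19 (SE 0.05) and the acetyltransferase gene NAA60 at -0.18 (SE 0.06). Both were called lower, but neither was called with DESeq2 or when libraries were scaled by their size alone. The GRB10 call was also lost without ICAM1-high replicate 2 or ICAM1-low replicate 2, and that of NAA60 without ICAM1-low replicate 1 (between 1.14e-11 and 0.783 for GRB10 and between 0.00287 and 0.954 for NAA60 over the alternatives).

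**Figure D4:**
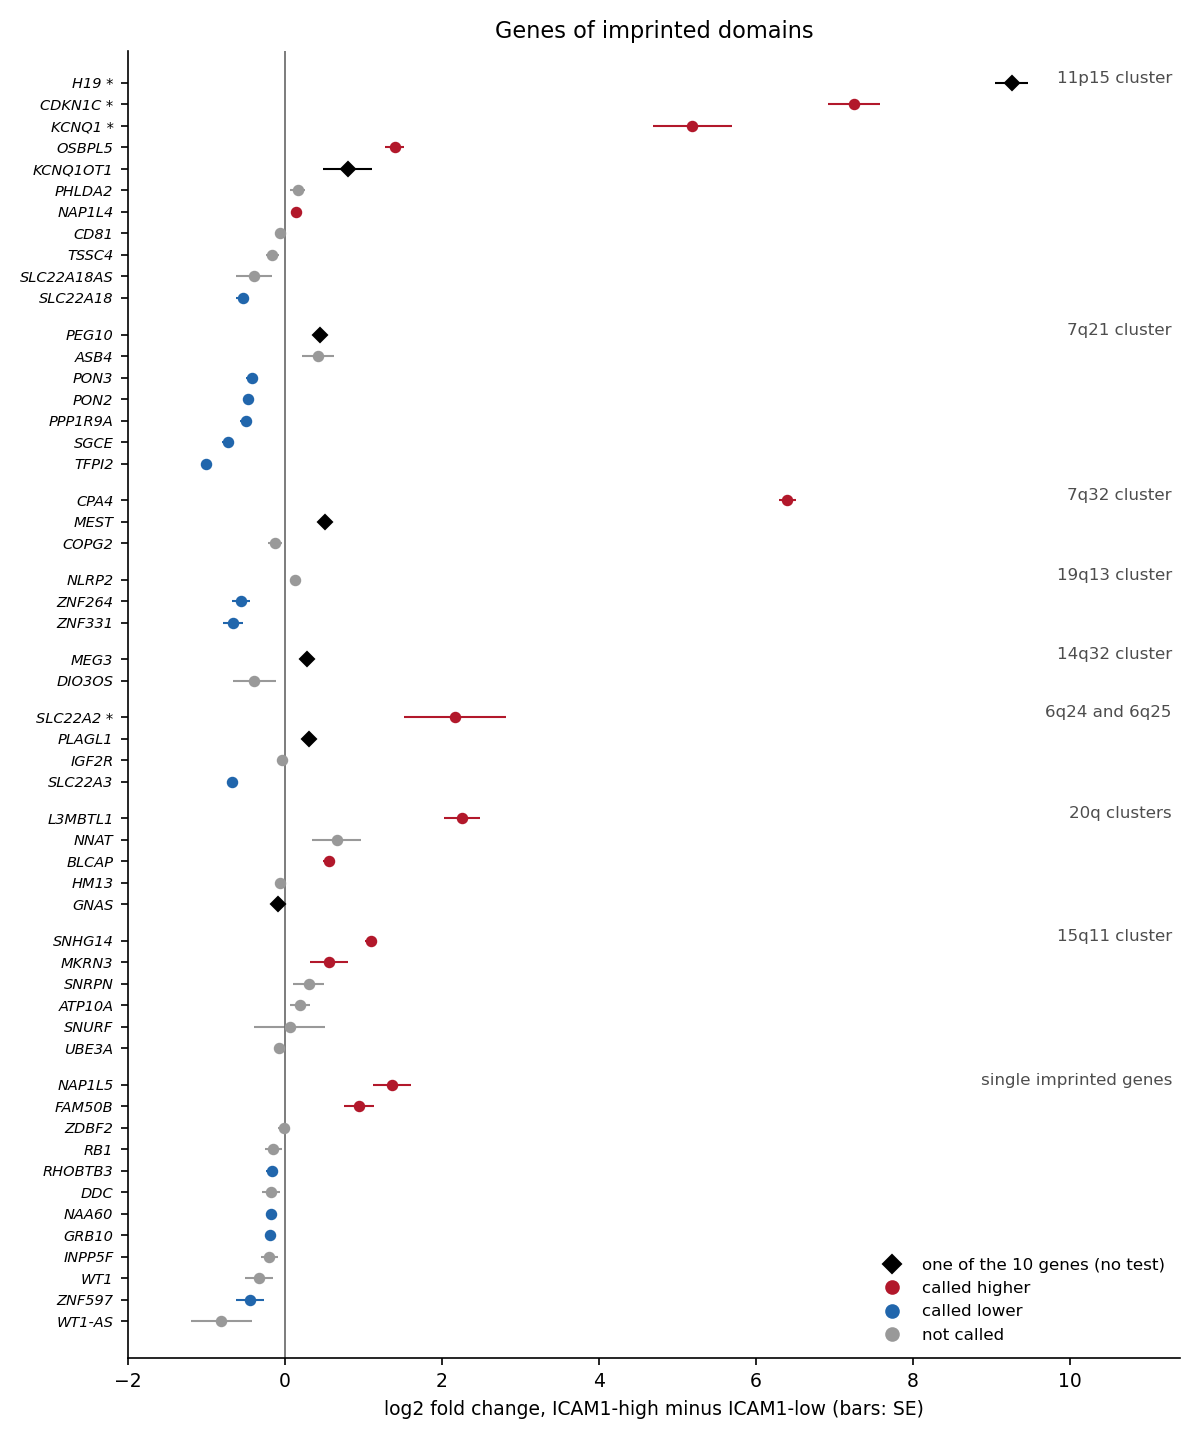
Log2 fold change, ICAM1-high minus ICAM1-low (horizontal axis, bars SE), of the 7 imprinted genes that passed the filter (black diamonds) and 46 other genes of imprinted domains (dots: red called higher, blue called lower, grey not called), grouped by cluster; an asterisk marks a gene that passed the filter through ICAM1-high alone. Most genes lie between -1.01 and 2.25, and H19, CDKN1C, CPA4 and KCNQ1 lie above 5.

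Of 11 genes that maintain or read imprints, 8 were tested, of which 4 rose (50%) and 2 fell (25%), at a median of 0.17, beside 30.4% and 29.4% of all genes. UHRF1, which guides maintenance DNA methylation, was at 107 and 120.3 against 48.5 and 50.3 CPM (1.20, SE 0.06). TRIM28, the corepressor that zinc-finger proteins bring to imprinted control regions, rose by 0.59 (SE 0.04) and ZNF445, one of those zinc-finger proteins, by 0.57 (SE 0.09), while ARID4A fell by 0.60 (SE 0.09). CTCF, named for its role at H19 after its value was seen, was at 80.7 and 74.7 against 75.4 and 71.2 CPM and was not called (0.08, SE 0.06). ZFP57, CTCFL and DPPA3 had at most 4 counts in any library.

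Partners of the proteins that IGF2 and GNAS encode were read from lists as well. On the insulin and IGF axis, 8 of 10 genes were tested, and 3 rose and 3 fell (37.5% each), at a median of 0.06, again beside 30.4% and 29.4%. The receptor substrate gene IRS2 was at 114 and 123 against 316 and 319 CPM (-1.42, SE 0.05), whereas PIK3R3, a regulatory subunit of PI3 kinase, rose by 2.59 (SE 0.20), INSR by 0.46 (SE 0.10) and AKT1 by 0.37 (SE 0.06). IGF1 had 3 counts in 1 library and 0 in the others. On the cyclic AMP axis downstream of GNAS, 16 of 18 genes were tested, of which 10 rose (62.5%) and 3 fell (18.8%), at a median of 0.43, against the same 30.4% and 29.4% over the whole table. The adenylyl cyclase gene ADCY9 rose by 0.77 (SE 0.07). The phosphodiesterase genes PDE4B and PDE4D, whose products break down cyclic AMP, fell by 1.33 (SE 0.06) and 0.93 (SE 0.04). PRKAR1A, a regulatory subunit of protein kinase A, fell by 0.68 (SE 0.04). The other regulatory subunits, named after their values were seen, did not fall. PRKAR1B rose by 0.78 (SE 0.09) and PRKAR2B by 1.22 (SE 0.25), and PRKAR2A was not called (0.04, SE 0.06).

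RefSeq promoter windows were at hand for H19, MEST, MEG3, PLAGL1 and GNAS, 20 starts in all, some of which overlap. The hexamer TGCCGC, which ZFP57 binds in methylated form, was found on either strand in 9 of the 20 windows, at MEST, MEG3, PLAGL1 and GNAS, and in 16.7% of all windows. The palindrome GGGGCCCC, bound by PLAGL1, was in 1 of the 20, a PLAGL1 window, and in 1.95% of all. The core of the CTCF motif, searched on both strands, was in 0 of the 20 and in 0.0655% of all. None of the 3 motifs was in the H19 window printed above. A match describes letters in a window, and these windows do not cover the H19 control region.

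The genes whose levels followed each imprinted gene most closely were taken as the 3 smallest Euclidean distances between centred log2 CPM values over the 4 libraries, over the 14481 tested genes whose mean reached 1 CPM. For H19 they were NCCRP1 (distance 0.406; 79.6 against 0.129 CPM), STEAP4 (0.419; 31.5 against 0) and DMD (0.554; 46.7 against 0), on chromosomes 19, 7 and X. Those of PEG10 were MAGEF1, BCL6 and RLF (0.0172 to 0.0250), those of MEST F2R, SRSF6 and CSE1L (0.0202 to 0.0229), and those of MEG3 RRS1, KRT18 and RPS14 (0.00883 to 0.0144). For PLAGL1 they were DISP1, SLC25A46 and LTBP1 (0.0210 to 0.0232), for GNAS ATG2A, MYO18A and FRMD8 (0.0122 to 0.0152), and for KCNQ1OT1 CATSPERB, ZNF771 and KIRREL2 (0.0636 to 0.0944). None of these is on the lists of imprinted domains, and with 4 libraries in 2 groups such likeness mostly repeats the size of the difference between the subsets.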

How the data were processed

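RNA-seq was compared between cells labelled A549 sorted as ICAM1-high and ICAM1-low, 2 libraries each. Trizol was used for the RNA and a SMARTER mRNA-Seq kit for the libraries, per the labels' protocols. The table the authors deposited holds counts of reads for each gene and library, without normalisation or pooling. The build was GRCh38 and FastQC 0.10.1 was run, per the submitters' processing notes. For aligner, counter and strand setting the entry is: not given in the sources used here. All 58735 identifiers are in GENCODE release 29, the source of positions and exon lengths, and 58207 had a symbol.

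The counts were fitted over the whole table with edgeR 4.0.16 in R 4.3.3 (robust quasi-likelihood test, TMM, default filter with a minimum count of 10 and total of 15). Genes with a p under 0.05 after Benjamini-Hochberg adjustment over the whole table were called. Single printed p-values are from edgeR, while ranges over the alternatives also take in the DESeq2 and limma-voom fits. TMM factors were 1.059, 1.065, 0.9395 and 0.9439. edgeR's common dispersion of 0.00133 corresponds to a 3.64% coefficient of variation between libraries. The scripts were tested on simulated data.

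The members and lists were chosen with earlier results of these data known. The rule for named genes took the 10 genes, up to 4 genes per list and 6 neighbours of H19 by smallest adjusted p, the 3 genes nearest to each imprinted gene, and ICAM1, CDKN2A, CDKN2B and MTAP. Alternatives were DESeq2 1.42.0, limma-voom (limma 3.58.1), other scalings and filters, the replicate number as a block and omission of each library. Where omission leaves 1 library in a subset, its spread is taken from the other subset.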

Additional observations from a re-analysis of the deposited data

How the results depend on the processing

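The 7 imprinted genes that passed the filter kept the direction of their log2 fold change under all alternatives run, except GNAS, which was at 0.08 with scaling by library size alone and otherwise between -0.12 and -0.06. Ranges were 8.85 to 9.81 for H19, 0.55 to 1.00 for KCNQ1OT1, 0.42 to 0.62 for PEG10, 0.47 to 0.68 for MEST, 0.25 to 0.45 for MEG3 and 0.27 to 0.49 for PLAGL1. The H19 range depends on the prior count and rests on 3 counts. Scaling by library size alone shifts every gene upward by construction: 3124 genes in place of 4771 were called lower, 20 in place of 12 imprinted domain genes higher, and 2 in place of 1 neighbour of H19 higher. With the window drawn by gene start (added after seeing the data) it was also 2, KCNQ1 being the other. PRADX, the neighbour called among genes wholly within the window, was not called with DESeq2 (0 higher), and with a mean of at least 1 CPM, or with genes under 1 CPM in either subset left out (added after seeing the data), it was not tested (0 higher). The imprinted genes past the call rule numbered 5 to 7. Omission of single libraries gave 0 to 1 neighbours higher, 9 to 13 imprinted domain genes higher and 11 to 14 lower. DESeq2 called 3785 and 3774 genes in place of 4935 and 4771. Of 47 named list genes and neighbours, 33 kept direction and call in all alternatives; the others include MKRN3, SLC22A2, GRB10 and NAA60. The replicate numbers do not pair the libraries by the labels, and deviations of same-numbered libraries correlated at 0.0417. With the replicate block 4976 genes were called higher and 4836 lower, 12 and 14 of them imprinted domain genes, and H19 stayed at 9.26. IGF2, DLK1 and PEG3 had fewer than 3 counts in each library, too few for a comparison.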
